A study of Homo sapiens with 6 samples.

Results

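The control cells of the series were MDA-MB-231 cells, a human breast cancer line used as a model of invasive, triple-negative disease. Their baseline transcriptome is described here. They were chosen by the column names of the deposited count table and by the sample titles, which gave 2 of the 6 libraries, control replicates 1 and 2. The control cells were wild type for PARP1 and carried a nontargeting short hairpin RNA (shRNA). The other 4 libraries came from PARP1 knockout cells of the same line with an shRNA against EZH2 or against SUZ12, 2 libraries each, and no level is compared with theirs. All groups were grown for 2 days in medium with fetal bovine serum before RNA extraction, and the labels give all of them the same passage range. The control cells therefore carried a hairpin and had no untransduced partner in the series, and they stand for a single cell line. Nothing in the labels says that the 2 libraries came from separate cultures, so the differences between them may be technical.

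Triple-negative breast cancers lack the oestrogen and progesterone receptors and do not amplify the receptor ERBB2, and their cells often depend on other growth factor receptors. MDA-MB-231 belongs to a subgroup called claudin-low, in which tight junction proteins and E-cadherin are scarce and mesenchymal proteins such as vimentin are plentiful. In the normal breast, luminal cells line the ducts and make simple keratins, and basal or myoepithelial cells outside them make KRT5 and KRT14 and contract.

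Libraries were made from poly(A) RNA with a stranded kit and the deposited values are reads per gene. Replicate 1 held 22782742 and replicate 2 held 20843336 reads assigned to genes. Levels are counts per 1000000 (CPM), with library sizes adjusted by edgeR's TMM method (a trimmed mean of log ratios between the 2 control libraries), so that 1 CPM stood for 22.3 counts in replicate 1 and 21.3 counts in replicate 2. A gene with 0 counts may have had up to 3, which is 0.134 CPM in replicate 1 and 0.141 CPM in replicate 2. Throughout, paired values are given as replicate 1 and then replicate 2, and a gene with a mean of at least 1 CPM is called expressed. Intervals are exact (Clopper-Pearson, 95%) and cover counting error only. Levels of different genes are set beside each other as CPM per kb of the longest annotated transcript, since a long transcript yields more reads than a short one.

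The label of the line was checked against its defining markers. VIM, the intermediate filament vimentin of mesenchymal cells, stood at 3154 and 2911 CPM, CD44, a hyaluronan receptor, at 901 and 716 CPM, and EGFR, the epidermal growth factor receptor, at 320 and 269 CPM. KRT8 and KRT18, the paired simple keratins, stood at 593 and 570 CPM and at 548 and 532 CPM. ESR1, the oestrogen receptor, had 0 counts in both libraries, and PGR, the progesterone receptor, had 8 and 5 counts. CDH1, which encodes E-cadherin, had 8 and 18 counts. The other markers looked up were both expressed, ERBB2 at 75.4 and 70.0 CPM and EPCAM, an epithelial adhesion molecule, at 16.3 and 14.1 CPM. VIM, CD44, EGFR, KRT8 and KRT18 were therefore present, and ESR1 was not detected. This check cannot tell the line from others that share these markers. The genes targeted elsewhere in the series were present in both control libraries: PARP1, which builds poly(ADP-ribose) chains at DNA breaks, at 423 and 357 CPM, EZH2, the methyltransferase of Polycomb repressive complex 2, at 198 and 186 CPM, and SUZ12, its structural subunit, at 134 and 131 CPM.

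Of 29744 genes counted, 12576 (42.3%) were expressed and 10889 (36.6%) had 0 counts in both libraries. The remaining genes lay between, of which 927 were counted in replicate 1 alone and 1283 in replicate 2 alone, with a median of 1 count. Among protein-coding genes 61.8% were expressed, 11709 of 18942, and 4105 had 0 counts. The numbers of expressed members in the lists below are to be read beside this share. The median expressed gene stood at 32.5 CPM. Only 74 genes exceeded a mean of 1000 CPM, and these held 13.7 and 13.5% of the counts, while the 2399 genes between 100 and 1000 CPM held 56.7 and 55.9%. The 10 most abundant genes held 4.32 and 4.40% of the counts, the 100 most abundant 16.2 and 15.9%, and the 1000 most abundant 49.9 and 48.8%.

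Among genes with an annotated length, the most abundant transcripts per length included those for proteins of the cytoskeleton, glycolysis, translation and iron storage. The entry RNR2, at 2349 and 2704 CPM, had no annotated length and was not ranked. S100A6, a small calcium-binding protein, led with 4822 and 4690 CPM per kb. ACTB, the cytoplasmic actin, followed with 3215 and 3580 CPM per kb and GAPDH, the glycolytic dehydrogenase, with 3438 and 3268 CPM per kb. The order of ACTB and GAPDH differed between the libraries, so their levels were not separated. FTL, the ferritin light chain, stood at a mean of 2049 CPM per kb, TMSB10, a thymosin that binds actin monomers, at 1932, HSPA8, the constitutive heat shock chaperone, at 1556, VIM at 1420, ENO1, the enolase of glycolysis, at 1388, and LGALS1, the secreted lectin galectin-1, at 1385. Others among the first 15 were ACTG1, the second cytoplasmic actin, and the ribosomal protein genes RPS18, RPL12, RPL7A and RPL8. Actin and ribosomal protein genes have near-identical copies elsewhere in the genome, and their counts are less certain for that reason. With the median annotated transcript in place of the longest, 8 of these 15 genes remained among the first 15.

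**Figure D1:**
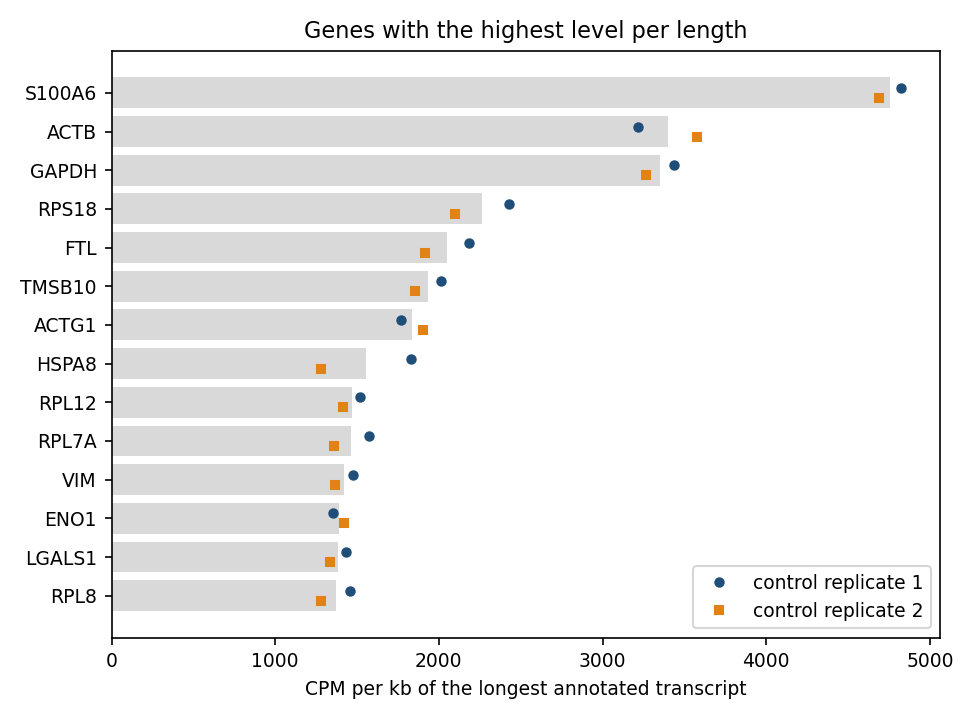
Levels of 14 of the 15 genes with the highest mean CPM per kb of the longest annotated transcript (horizontal axis, CPM per kb). Grey bars are means of the 2 control libraries and points are the libraries. S100A6 stood at 4822 and 4690 CPM per kb and HSPA8 had the widest relative gap, 1830 against 1281 CPM per kb.

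Glycolysis genes were abundant as a list. Of 21 members 20 were expressed, with a list median of 492 CPM beside 32.5 CPM over expressed genes and 0.185 CPM over all genes. PKM, the pyruvate kinase, stood at 3129 and 3193 CPM, LDHA, which makes lactate, at 1465 and 1445 CPM, and SLC2A1, the glucose transporter GLUT1, at 692 and 623 CPM. SLC16A1, a monocarboxylate transporter, was the member below 1 CPM, at 0.941 and 0.470, and SLC16A3, a transporter that exports lactate, stood at 526 and 489 CPM. All 28 cell cycle genes were expressed, with a median of 204 CPM. TOP2A, the topoisomerase of dividing cells, stood at 1300 and 1198 CPM, MKI67, the proliferation antigen Ki-67, at 1140 and 1202 CPM, and CCND1, cyclin D1, at 813 and 705 CPM.

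Mesenchymal genes were broadly expressed, although several classical factors of the epithelial-mesenchymal transition (EMT) were near 0. Of 39 listed genes 32 were expressed, 20 of them at 100 CPM or more, and the list median was 111 CPM. Per length, VIM led the list with 1477 and 1363 CPM per kb. S100A4, a calcium-binding protein of motile cells, stood at 605 and 682 CPM per kb, CYR61, a matricellular protein, at 378 and 427, and AXL, a receptor tyrosine kinase, at 366 and 301 CPM per kb. ITGB1, the common integrin beta chain, stood at 1091 and 926 CPM, THBS1, the matrix protein thrombospondin-1, at 1194 and 803 CPM, and FN1, fibronectin, at 493 and 323 CPM. FN1 was 1.52-fold higher in replicate 1 (interval 1.48 to 1.57). THBS1 was lower in replicate 2 too, and 23 of the 32 expressed members were lower there, beside 6718 of all 12576 expressed genes. Their median log2 ratio was -0.15, beside -0.02 over all expressed genes.

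The EMT transcription factors were unevenly represented. ZEB1 stood at 95.1 and 99.1 CPM, SNAI2 (Slug) at 19.5 and 17.6 CPM and ZEB2 had 280 and 255 counts, so that the libraries were close together for each. SNAI1 (Snail) stood at 1.16 and 1.08 CPM, TWIST1 at 0.582 and 0.705 CPM, and TWIST2 had 0 counts. CDH2, N-cadherin, was at 0.403 and 0.517 CPM, with 9 and 11 counts, so that neither E-cadherin nor N-cadherin reached 1 CPM, whereas CDH11, the cadherin of mesenchymal cells, stood at 29.2 and 38.2 CPM. SPARC, a secreted matrix protein of fibroblasts, was at 0.269 and 0.517 CPM, and MMP2, a gelatinase, stood at 0 and 0.047 CPM.

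Simple keratins were expressed at over 100 CPM per kb, and the luminal transcription factor FOXA1 was near 0. Of 25 luminal markers 15 were expressed (60%, beside 61.8% of all protein-coding genes), with a median of 4.65 CPM. KRT7 stood at 460 and 411 CPM per kb, KRT18 at 323 and 314, KRT8 at 243 and 234 and KRT19 at 115 and 148 CPM per kb, an order that both libraries shared. GATA3, the luminal lineage factor, stood at 11.5 and 10.5 CPM, and FOXA1, its partner at oestrogen receptor sites, had 1 and 0 counts. The alveolar and secretory markers ELF5, CEACAM6, PIP, SCGB2A2 and CSN2 had 0 counts in both libraries. SPDEF and EHF, ETS factors of secretory and ductal epithelium, stood at 28.4 and 44.2 CPM and at 56.7 and 74.0 CPM, and MLPH, which tethers melanosomes and secretory granules to myosin, stood at 140 and 165 CPM. In bulk RNA a marker carried by fewer cells cannot be told apart from less RNA of it in each cell.

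The basal list was split in the same way. Of its 26 members 15 were expressed (57.7%, beside 61.8% of all protein-coding genes). The laminin-332 receptor chains ITGA6, at 314 and 293 CPM, and ITGB4, at 278 and 355 CPM, were present with their ligand chain LAMB3 at 323 and 334 CPM, and CAV1, the coat protein of caveolae, stood at 1262 and 1202 CPM. The keratins that define basal cells were not detected at this depth: KRT5, KRT14, KRT6A and KRT6B had 0 counts, as did the desmosomal cadherin DSG3, and KRT17 stood at 0.134 and 0.047 CPM. TP63, the basal master regulator, stood at 1.12 and 1.22 CPM. Over the whole keratin family, 10 of 56 genes were expressed and 32 had 0 counts.

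Junction genes ran from abundant to absent. Of 33 genes of epithelial junctions and their regulators 25 were expressed, and 5 reached 100 CPM. SPINT2, an inhibitor of membrane serine proteases, stood at 352 and 315 CPM, TJP1, the scaffold protein ZO-1, at 124 and 118 CPM, and DSG2, a desmosomal cadherin, at 148 and 121 CPM. Among the claudins, CLDN4 stood at 75.6 and 79.6 CPM, CLDN7 at 14.5 and 17.8 CPM, CLDN1 at 4.03 and 2.73 CPM and CLDN3 at 1.16 and 1.60 CPM, and 8 of 23 claudin genes were expressed. EPCAM, the epithelial adhesion molecule, stood at 16.3 and 14.1 CPM. The regulators of the epithelial programme were split. ESRP1, the epithelial splicing factor, stood at 0.179 and 0.141 CPM, GRHL2 at 0 and 0.047 CPM, OVOL1 at 0 and 0.047 CPM and OVOL2 at 0 and 0.188 CPM. ESRP2, the paralogue of ESRP1, stood at 6.76 and 5.69 CPM and GRHL1 at 2.02 and 2.16 CPM.

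**Figure D2:**
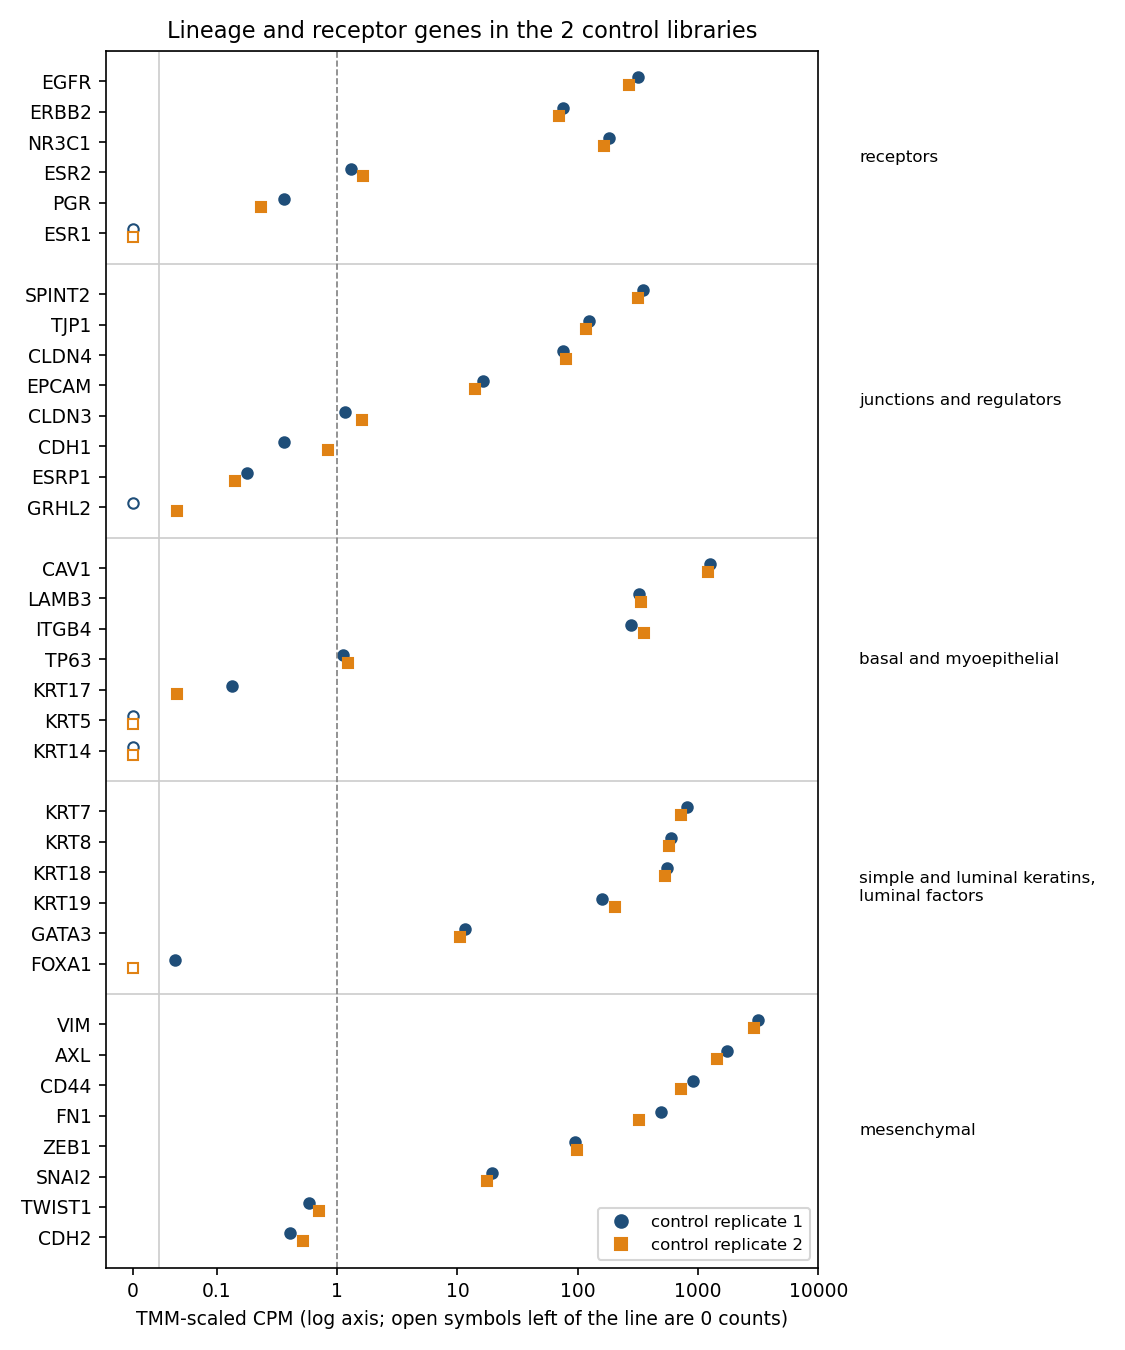
TMM-scaled CPM (horizontal log axis) of lineage and receptor genes, with circles for control replicate 1 and squares for control replicate 2. Open symbols at the left are 0 counts and the dashed line is 1 CPM. VIM and AXL exceed 1000 CPM in both libraries, simple keratins lie between 160 and 806 CPM, and ESR1, KRT5 and KRT14 have no count.

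Surface markers of stem-like breast cancer cells were unevenly expressed. CD24, a mucin-like surface protein of luminal cells, stood at 4.75 and 4.56 CPM, while CD44 stood at 901 and 716 CPM and NT5E, the ecto-nucleotidase CD73, at 958 and 864 CPM. Of 20 stem-like and surface markers 13 were expressed (65%, beside 61.8% of all protein-coding genes). PROM1, which encodes CD133, stood at 0.0448 and 0 CPM, and ALDH1A1 had 0 counts, while its relative ALDH1A3 stood at 5.51 and 4.98 CPM.

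The glucocorticoid receptor was expressed, and the oestrogen and progesterone receptors were low or not detected. Of 23 nuclear receptors 17 were expressed, 4 were counted below 1 CPM, and ESR1 and the orphan receptor ESRRB had 0 counts. NR3C1, the glucocorticoid receptor, stood at 184 and 165 CPM, NR2F2, the orphan receptor COUP-TFII, at 168 and 174 CPM, and RXRA, the partner that many of these receptors bind DNA with, at 93.9 and 92.7 CPM. Per length RXRA was the higher of these, at 50.9 and 50.2 CPM per kb against 25.2 and 22.7 for NR3C1. PPARG, the receptor of fat cell differentiation, stood at 65.3 and 63.5 CPM. ESR2, the second oestrogen receptor, stood at 1.30 and 1.65 CPM. Between the libraries the 17 expressed members had a median log2 ratio of -0.02.

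Among 41 growth factor receptor genes 30 were expressed, and AXL had the highest level per length of those named here. EPHA2, a receptor for membrane-bound ephrins, stood at 141 and 141 CPM per kb, MET, the receptor for hepatocyte growth factor, at 66.8 and 54.2, EGFR at 32.6 and 27.4, and ERBB2 at 15.7 and 14.6 CPM per kb. Both libraries gave this order. ERBB3, which pairs with ERBB2 but has a weak kinase, stood at 7.21 and 9.12 CPM and ERBB4 at 0.0448 and 0.141 CPM. FLT1, RET, ROR2 and NTRK3 had 0 counts in both libraries. Ligands were expressed alongside: GAS6, the ligand of AXL, stood at 538 and 477 CPM, TGFA and HBEGF, ligands of EGFR, at 84.5 and 94.7 CPM and at 82.6 and 73.9 CPM, and NRG1, a ligand of ERBB3, at 58.3 and 53.1 CPM. HGF, the ligand of MET, had 0 counts, as did IGF2. Of 28 growth factor genes 21 were expressed, including BMP4 at 255 and 264 CPM and VEGFA, the angiogenic factor, at 204 and 208 CPM.

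Receptors of the IL6 family were accompanied by some of their ligands. IL6ST, the shared signalling chain gp130, stood at 270 and 264 CPM, with the ligand-binding chains OSMR at 126 and 132 CPM and LIFR at 65.8 and 80.1 CPM. IL6R, the chain for IL6 itself, stood at 2.60 and 1.27 CPM and was over 2-fold higher in replicate 1. The ligand LIF stood at 83.8 and 87.7 CPM and IL11, which also signals through gp130, at 183 and 92.5 CPM, 1.97-fold higher in replicate 1 (interval 1.87 to 2.08). IL6 stood at 2.06 and 3.15 CPM. Of 32 cytokine and chemokine receptors 23 were expressed. CXCR4, the chemokine receptor linked to breast cancer spread, stood at 0.224 and 0.094 CPM.

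Of 39 chemokine and cytokine genes 15 were expressed, 14 were counted below 1 CPM and 10 had 0 counts, among them CXCL5, CXCL6, CXCL12, CCL20, TNF and the interferons IFNB1 and IFNG. The neutrophil chemokine listed as IL8 stood at 1.75 and 1.03 CPM, CXCL1 at 0.269 and 0.329 CPM, and CCL2, which attracts monocytes, at 0 and 0.047 CPM. The abundant members were LGALS1, at 802 and 749 CPM, CSF1, the growth factor of macrophages, at 183 and 252 CPM, TGFB2 at 148 and 127 CPM, and IL11. MIF, a cytokine made by most cell types, and DDT, its neighbour and relative on chromosome 22 (DDT was looked up after the values were seen), both had 0 counts. Multimapping reads, which were assigned to no gene, made up 7.21 and 7.64% of all counts, and their part in this result was not tested.

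Class I antigen presentation genes such as HLA-B and HLA-C were expressed, and the class II chain genes were low. Of 27 listed genes 22 were expressed, and HLA-DQA1 had 0 counts. HLA-B stood at 106 and 92.1 CPM and HLA-C at 96.0 and 87.7 CPM, with the light chain B2M at 534 and 472 CPM and the peptide transporter TAP1 at 28.3 and 24.8 CPM. CD74, the class II invariant chain, stood at 132 and 118 CPM and CIITA, the class II activator, had 213 and 277 counts. HLA-DRA stood at 7.21 and 5.74 CPM, HLA-DPA1 at 0.717 and 0.564 CPM and HLA-DPB1 at 0.179 and 0.235 CPM. HLA genes are similar and polymorphic, so reads may be lost or shared between them. Within the list 19 of the 22 expressed genes were lower in replicate 2, beside 6718 of all 12576 expressed genes. The list's median log2 ratio was -0.15, the same to 2 decimals as in the mesenchymal, cell cycle and cytoskeleton lists.

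Ligands that dampen lymphocytes were present as transcripts. Of 18 immune checkpoint ligands and enzymes 11 were expressed (61.1%), close to the 61.8% of all protein-coding genes. NT5E, which makes immunosuppressive adenosine, led per length with 244 and 221 CPM per kb, above PVR, a ligand of TIGIT, with 79.4 and 68.2 and CD274, which encodes PD-L1, with 10.9 and 9.15 CPM per kb. In CPM, CD274 stood at 39.6 and 33.3, CD47, the signal against phagocytosis, at 110 and 114, and CD276 (B7-H3) at 32.7 and 40.5. The costimulatory ligands CD80, CD86 and ICOSLG and the inhibitory VTCN1 had 0 counts. Innate sensing and interferon-induced genes were expressed at low to middling levels, 33 of 36, with 0 of them silent and a median of 26.0 CPM. MAVS, the adaptor of RNA sensing, stood at 150 and 148 CPM, and MX1, an interferon-induced GTPase, at 2.82 and 2.26 CPM. Of the DNA-sensing pathway, TMEM173 (STING) stood at 19.6 and 17.6 CPM and MB21D1 (cGAS) at 38.6 and 32.1 CPM.

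Markers of other cell types were looked up as a check on the culture. Of 26 leukocyte markers 5 were expressed and 14 had 0 counts, and the defining PTPRC (CD45) stood at 0.224 and 0.329 CPM. The summed level of the list was 145 and 131 CPM, most of it from CD68, a lysosomal protein, at 93.4 and 87.5 CPM and ITGB2, an integrin chain of blood cells, at 42.8 and 34.7 CPM. Of 13 fibroblast markers 4 were expressed and COL3A1, DCN, FAP, POSTN, ASPN and THY1 had 0 counts, so that the summed 387 and 442 CPM came mostly from S100A4. Of 13 endothelial markers 5 were expressed, with ESAM, an adhesion molecule, at 209 and 190 CPM, while CDH5, which defines endothelium, had 0 counts. Of 12 adipocyte and muscle markers 0 were expressed and 9 had 0 counts. Of 23 markers of other tissues 5 were, led in CPM by ENO2, an enolase of neurons, at 139 and 154 and GFAP, the filament of astrocytes, at 9.50 and 14.3.

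Adhesion and proteolysis genes were uneven within their families. Of 25 integrin genes 14 were expressed (56%, beside 61.8% of all protein-coding genes). ITGA3, a laminin-binding chain, stood at 1430 and 1183 CPM beside ITGB1. Of 28 proteases and inhibitors 21 were expressed. CTSD, the lysosomal cathepsin D, stood at 888 and 1111 CPM per kb, PLAU, the urokinase, at 176 and 201, MMP14, the membrane-bound collagenase, at 135 and 134, and its inhibitors TIMP2 and TIMP3 at 132 and 138 and at 100 and 147 CPM per kb. PLAUR, the urokinase receptor, stood at 99.2 and 75.1 CPM. The secreted metalloproteases MMP9, MMP3, MMP7 and MMP10 each stood at 0.0448 and 0 CPM, which is 1 and 0 counts and under the floor, and MMP1, also secreted, stood at 1.16 and 1.18 CPM. TIMP3 was 1.47-fold higher in replicate 2 (interval 1.43 to 1.51).

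Of 31 immediate early and stress genes 28 were expressed, 10 of them at 100 CPM or more, with a list median of 43.6 CPM. FOSL1, the AP-1 subunit of invasive breast cancer lines, stood at 455 and 443 CPM and JUN, its partner, at 158 and 146 CPM, whereas the serum-induced FOS stood at 2.19 and 2.91 CPM and EGR1 at 2.69 and 4.84 CPM. MYC stood at 122 and 116 CPM. HSPA5, the chaperone of the endoplasmic reticulum, stood at 776 and 798 CPM.

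Most tumour suppressors and oncogenes on the list were expressed, and CDKN2A and CDKN2B were not. Of 19 tumour suppressors and oncogenes 17 were expressed, including the kinase BRAF at 35.0 and 35.0 CPM and NF2, the tumour suppressor merlin, at 15.6 and 13.9 CPM. These levels say nothing of sequence. CDKN2A (GRCh38, chromosome 9, 21967753 to 21995301, minus strand), which encodes the cell cycle inhibitors p16 and ARF, and CDKN2B, which encodes p15, had 0 counts in both libraries.

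The silence extended over a stretch of the short arm of chromosome 9. From position 20999515 to 24545946 (3.55 Mb), 24 consecutive protein-coding genes had 0 counts in both libraries, and so did the noncoding MIR31HG and CDKN2B-AS1. Most of the 24 are type I interferon genes, which resting cells hardly transcribe, but the stretch also holds MTAP (21802543 to 21937651, plus strand), an enzyme of methionine salvage, KLHL9, an adaptor of a ubiquitin ligase in mitosis, and PTPLAD2, named HACD4 in later annotation. The flanks were counted: MLLT3 at 11.4 and 12.6 CPM and FOCAD at 2.51 and 3.90 CPM on the side of the telomere, and TUSC1 at 12.8 and 12.8 CPM, CAAP1 at 28.6 and 29.1 CPM and PLAA at 78.2 and 84.7 CPM on the side of the centromere. The files hold RNA counts and no measurement of DNA. The boundaries of the stretch are those of the annotated genes.

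**Figure D3:**
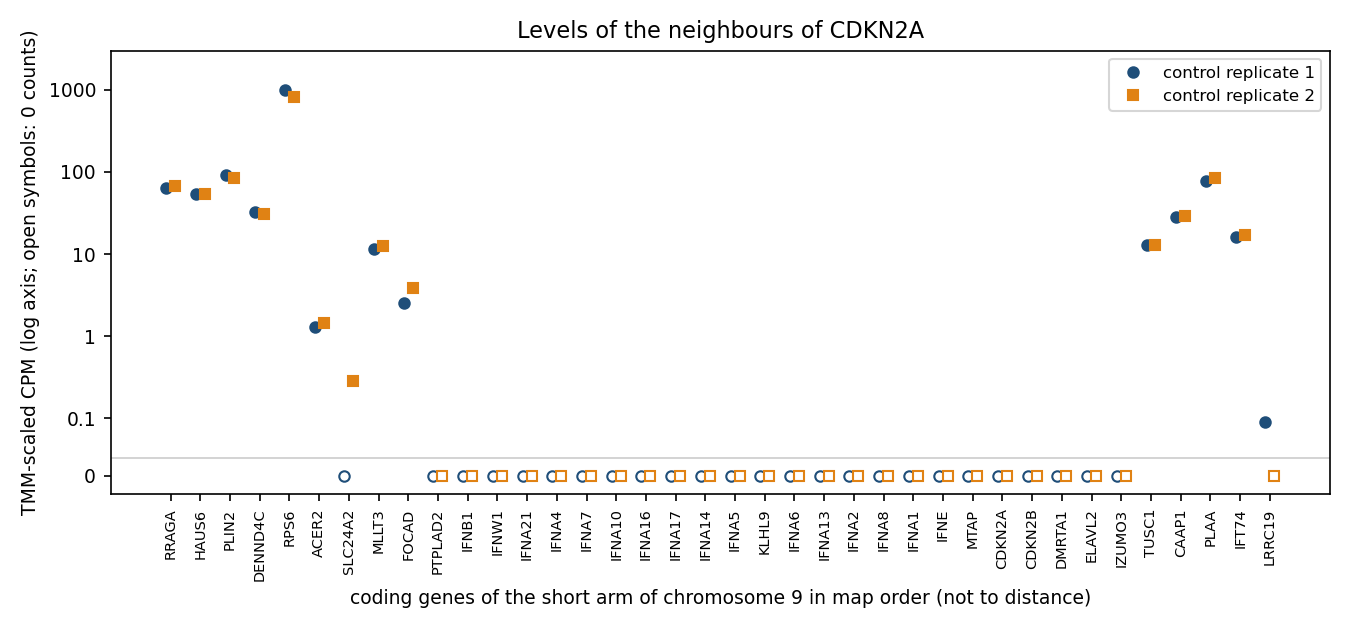
TMM-scaled CPM (vertical log axis) of protein-coding genes around CDKN2A, in map order and not to distance, in control replicate 1 (circles) and control replicate 2 (squares). Open symbols are 0 counts. The 24 genes from PTPLAD2 to IZUMO3 have no count, between FOCAD at 2.51 and 3.90 CPM and TUSC1 at 12.8 and 12.8 CPM.

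Several other runs of consecutive silent coding genes were clusters of tissue-restricted families. The longest held 62 genes on chromosome 11, mostly olfactory receptors. A run of 42 genes on chromosome 1 held late cornified envelope and small proline-rich genes of the epidermis together with S100A8, S100A9 and S100A7, and ended at S100A6, the gene with the highest level per length. A run of 35 genes on chromosome 21 held keratin-associated proteins of hair, a run of 14 on chromosome 12 held keratins including KRT5, KRT6A, KRT6B and KRT1, and a run of 13 on chromosome 19 held kallikreins. A run of 16 on chromosome 6 held histone genes, whose messages mostly lack the poly(A) tail that the library kit selects. By family, 370 of 393 olfactory receptor genes, 92 of 94 keratin-associated protein genes, 14 of 14 interferon alpha genes and 18 of 18 late cornified envelope genes had 0 counts, beside 36.6% over all genes. At the other end, 82 of 84 cytosolic ribosomal protein genes were expressed, and the exceptions, RPL10L and RPL3L, are copies restricted to testis and muscle. Of 39 HOX genes 8 were expressed, led in CPM by HOXB9 at a mean of 11.1.

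Promoters of expressed coding genes were rich in CG dinucleotides. RefSeq promoter windows (GRCh38.p14, 250 bases before to 50 after each start) were matched by symbol for 9706 of 11709 expressed coding genes (82.9%). The median ratio of observed to expected CG was 0.847 there beside 0.579 over all 35116 windows, and it was 0.777, 0.854 and 0.885 for genes at 1 to 10, 10 to 100 and at least 100 CPM. The motif TATAAA, searched on both strands, was in 5.08% of the windows of expressed genes and in 11.5% of all windows, GGGCGG in 71.6 and 44.95%, and CCAAT in 36.9 and 34.6%. The set of all windows was not filtered by coding status and can hold several starts of a gene, against a single window per expressed gene. For silent coding genes 75.5% had a window, under the 80% set as a minimum, so no value is given for them. The values therefore do not compare expressed with silent coding genes.

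The 2 control libraries were alike for most genes, and the cholesterol synthesis list differed most among lists with more than 3 expressed members. Across the 12576 expressed genes Pearson's r of log2 CPM was 0.992, a description across genes that share libraries. In all, 94.0% of genes were within 1.5-fold of each other, and the median absolute log2 ratio was 0.15. The coefficient of variation beyond counting error was 10.2% (edgeR common dispersion, both libraries, intercept only). The counting interval of the ratio excluded equality for 5702 genes (45.3%), so counting error alone understates the error between the libraries. With a single library on each side there is no test, and the ratios compare these libraries and no conditions.

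Over 2-fold differences were found for 174 genes (1.38%), of which 155 (1.23%) were higher in replicate 2 and 19 (0.151%) in replicate 1. They were mostly low genes: their median level was 1.76 CPM, 15 stood at 10 CPM or more and 3 at 100 CPM or more. Of genes at 1 to 10 CPM 4.99% were over 2-fold apart, of those at 10 to 100 CPM 0.173%, and of those at 100 to 1000 CPM 0.125%. In 19 of the 174 the whole interval lay past 2-fold. Without scaling 210 genes were over 2-fold apart, 93.3% of them higher in replicate 2 against 89.1% with TMM.

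**Figure D4:**
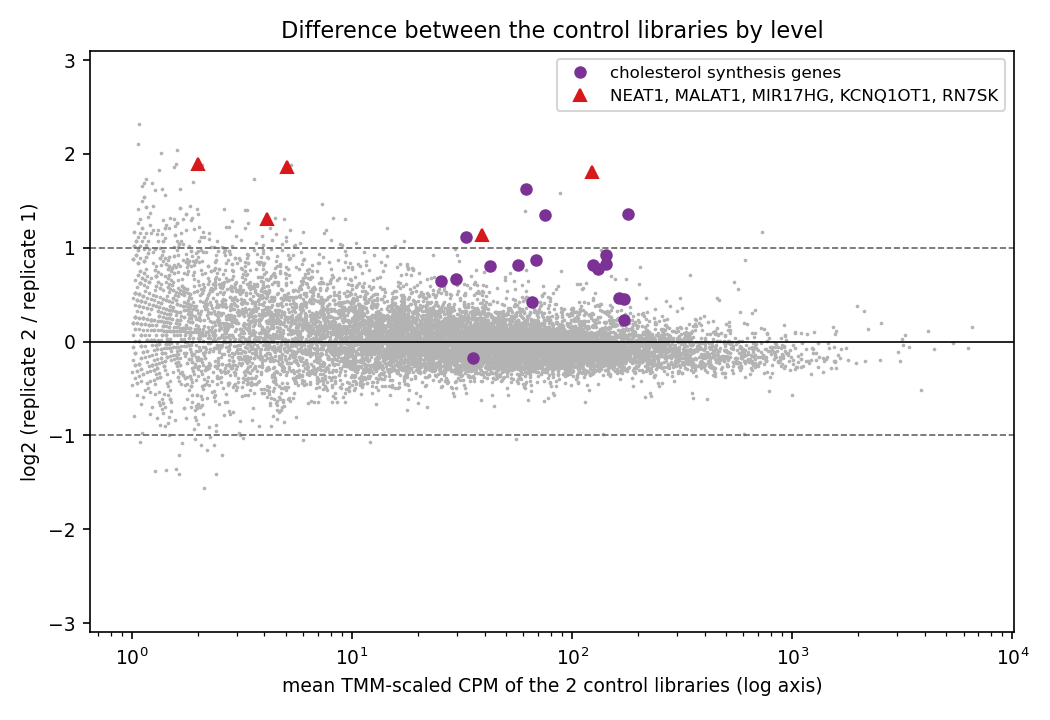
Log2 ratio of replicate 2 to replicate 1 (vertical axis) against mean TMM-scaled CPM (horizontal log axis) for the 12576 expressed genes in grey, with 18 cholesterol synthesis genes and 5 noncoding RNAs marked. Dashed lines are 2-fold. The grey cloud narrows as the level rises, and INSIG1 and NEAT1 stand over 2-fold apart above 100 CPM.

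All 22 listed genes of cholesterol synthesis and uptake were expressed, and 21 were higher in replicate 2, with a median log2 ratio of 0.79 beside -0.02 over all expressed genes. Their summed level was 2184 CPM in replicate 1 and 3487 CPM in replicate 2, and 5 were over 2-fold apart. Sterol synthesis is controlled by the transcription factor SREBP2, which is released to the nucleus when membrane sterol falls, and most of these genes are its targets. The list was chosen with earlier results of these data known, so the pattern is a description.

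The enzymes at the start of the pathway differed widely. HMGCS1, which makes hydroxymethylglutaryl-CoA, stood at 30.3 CPM in replicate 1 and 93.4 CPM in replicate 2, 3.08-fold higher in replicate 2 (interval 2.82 to 3.36). MVK, mevalonate kinase, stood at 20.9 and 45.1 CPM, 2.16-fold higher (interval 1.93 to 2.42). PMVK, the next kinase, was the exception in the list, at 37.4 and 33.3 CPM. Of the later enzymes, MSMO1, the sterol methyl oxidase, stood at 42.6 and 108 CPM, 2.54-fold higher (interval 2.35 to 2.74). FDPS, which makes farnesyl diphosphate, stood at 159 and 187 CPM.

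Regulators lay on the same side. INSIG1, which retains the SREBP complex in the endoplasmic reticulum and is itself a target, stood at 101 and 259 CPM, 2.56-fold higher in replicate 2 (interval 2.44 to 2.69). The factors SREBF1 and SREBF2 stood at 137 and 190 CPM and at 145 and 199 CPM. Of the fatty acid genes SCD, the stearoyl-CoA desaturase, and FASN, the fatty acid synthase, both chosen after their values were seen, SCD stood at 451 and 1014 CPM and FASN at 433 and 789 CPM. LPIN1, a phosphatidic acid phosphatase, stood at 33.6 and 88.1 CPM and LIPG, endothelial lipase, at 3.90 and 10.8 CPM.

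**Figure D5:**
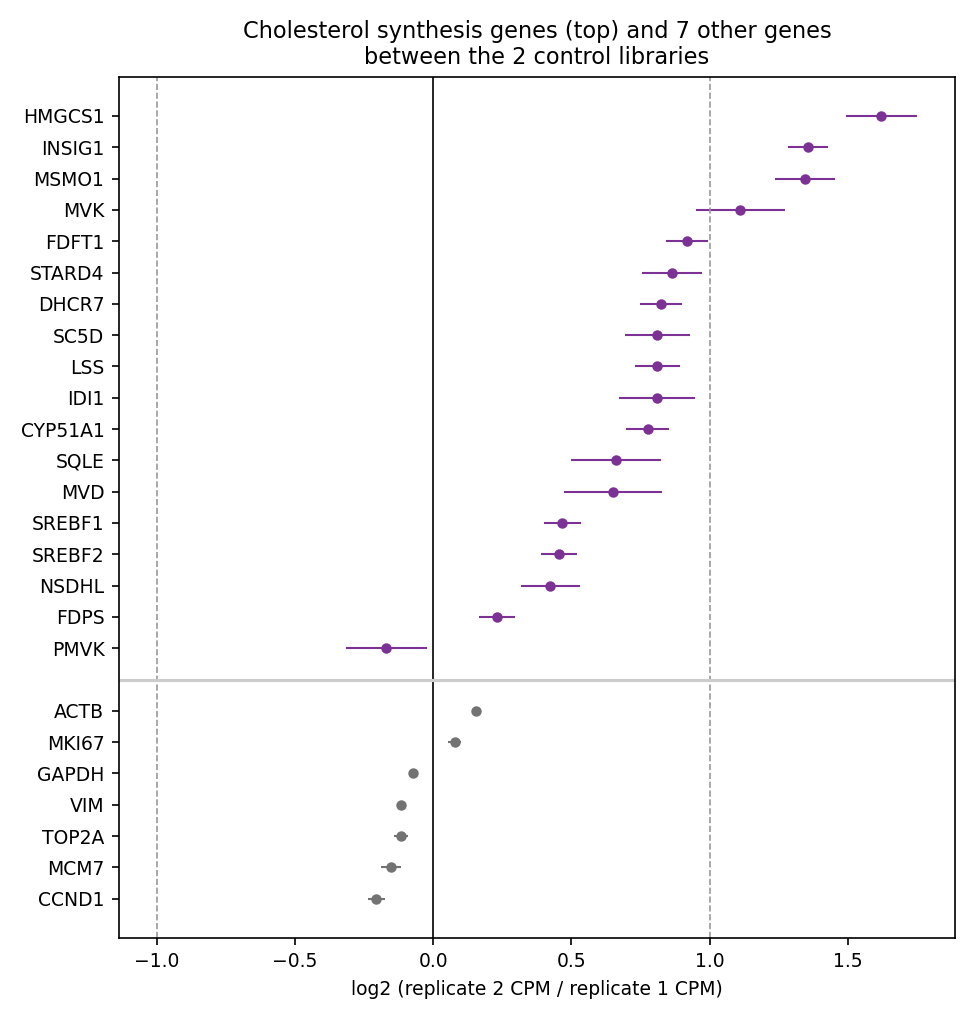
Log2 ratio of replicate 2 to replicate 1 (horizontal axis) with exact 95% counting intervals for 18 of the 22 cholesterol synthesis genes (purple) and 7 other genes (grey). Dashed lines are 2-fold. PMVK is the cholesterol gene below 0, HMGCS1 is the highest at 1.62, and the 7 other genes lie between -0.21 and 0.15.

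The promoters of 4 of the 5 cholesterol genes over 2-fold apart are shown because these genes differed together. CCAAT, the motif of the factor NF-Y, is in capitals, with ATTGG where it lies on the opposite strand. The sequences are RefSeq windows on GRCh38.p14, the 250 bases before the first listed start, 5′ to 3′ on the gene's strand. They are INSIG1 at chr7:155297628-155297877 (plus strand), HMGCS1 at chr5:43313413-43313662 (minus strand), MSMO1 at chr4:165327419-165327668 (plus strand) and MVK at chr12:109573544-109573793 (plus strand).
INSIG1: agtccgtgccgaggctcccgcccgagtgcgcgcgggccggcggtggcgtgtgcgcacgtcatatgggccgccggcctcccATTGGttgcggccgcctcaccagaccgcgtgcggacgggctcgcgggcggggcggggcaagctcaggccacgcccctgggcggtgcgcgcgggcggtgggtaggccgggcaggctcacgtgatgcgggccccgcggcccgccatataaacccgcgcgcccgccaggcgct
HMGCS1: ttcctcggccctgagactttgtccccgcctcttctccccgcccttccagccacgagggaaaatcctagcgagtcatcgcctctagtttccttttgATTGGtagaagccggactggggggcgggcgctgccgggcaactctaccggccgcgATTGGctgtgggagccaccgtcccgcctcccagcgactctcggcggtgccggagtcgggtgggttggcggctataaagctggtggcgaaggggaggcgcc
MSMO1: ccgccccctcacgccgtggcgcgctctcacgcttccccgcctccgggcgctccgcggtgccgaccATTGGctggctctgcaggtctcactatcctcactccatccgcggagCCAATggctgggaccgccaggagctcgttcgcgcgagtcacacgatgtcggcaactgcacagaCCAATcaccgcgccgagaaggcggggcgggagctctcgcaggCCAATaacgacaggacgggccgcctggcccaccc
MVK: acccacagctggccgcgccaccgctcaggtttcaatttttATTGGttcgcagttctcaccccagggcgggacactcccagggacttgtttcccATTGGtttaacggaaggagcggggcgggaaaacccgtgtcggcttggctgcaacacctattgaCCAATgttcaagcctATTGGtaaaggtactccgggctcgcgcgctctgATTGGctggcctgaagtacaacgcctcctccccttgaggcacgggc
INSIG1 held 1 match, HMGCS1 2, MSMO1 4 and MVK 5, where 34.6% of all windows of the same table held at least 1. TATAAA was found in INSIG1 and HMGCS1, 27 and 29 bases before the start, and in neither MSMO1 nor MVK. A match describes these letters and does not show binding. Of the 22 genes of the list 16 (72.7%) had a window, too few for a share over the list.

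Several nuclear noncoding RNAs were also higher in replicate 2. NEAT1 (chromosome 11, 65422774 to 65445540, plus strand), the scaffold of paraspeckles, stood at 55.1 and 192 CPM, 3.49-fold higher (interval 3.28 to 3.73). Others were chosen after their values were seen: MALAT1, its neighbour in nuclear speckles, stood at 24.3 and 53.4 CPM, MIR17HG, the host of a microRNA cluster, at 2.19 and 7.99 CPM, KCNQ1OT1, an imprinted antisense RNA, at 2.37 and 5.88 CPM, and RN7SK, a small nuclear RNA, had 19 and 67 counts. By gene type, 11 of 100 expressed lincRNA genes, 8 of 108 antisense genes and 7 of 29 small nucleolar RNA genes were over 2-fold higher in replicate 2, beside 1.23% of all expressed genes. Level enters here, since 4.99% of all genes at 1 to 10 CPM were over 2-fold apart in either direction. The highest small nucleolar RNA gene stood at 5.54 CPM. LINC00657 and FGD5-AS1, the highest lincRNA and antisense genes, had log2 ratios of 0.03 and -0.07. Gene type was not separated from level. Reads in no annotated feature made up 6.25% of all counts in replicate 1 and 8.65% in replicate 2. Their part in the difference was not tested. Since the counting's strand setting is not given in the sources used here, antisense and sense reads may not have been told apart.

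The other named genes higher in replicate 2 were RPL36A, a ribosomal protein with near-identical copies, at 2.24 and 8.27 CPM, SEC31B, a coat protein of secretory vesicles, at 4.70 and 11.7 CPM, and ATP8A1, a phospholipid flippase, at 5.38 and 13.3 CPM. At a mean of 5 CPM or more 3 genes were over 2-fold higher in replicate 1: TAGLN, the actin-binding protein transgelin, at 16.4 and 7.80 CPM, LRIG1, an inhibitor of EGFR signalling, at 8.06 and 3.90 CPM, and SRGN, the granule proteoglycan serglycin, at 74.9 and 36.4 CPM. Each of these ratios was close to 2-fold, with intervals of 1.74 to 2.53, 1.58 to 2.71 and 1.89 to 2.24.

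Several lists had a small shared offset in the other direction. Of 28 cell cycle genes 27 were lower in replicate 2, beside 6718 of all 12576 expressed genes, and MKI67 was the exception. Their median log2 ratio was -0.15. In the list of cytoskeleton and translation genes 28 of 34 were lower, also with a median of -0.15, so the offset was not particular to cell cycle genes. Among 82 expressed cytosolic ribosomal protein genes the median log2 ratio was -0.21. The ratio also moved with transcript length: the median log2 ratio was -0.12 for 456 genes with a longest transcript under 1 kb, -0.06 from 1 to 2 kb, -0.03 from 2 to 3 kb, and 0.01 for 1066 genes of at least 8 kb. Spearman's rho between ratio and length was 0.111 over 12165 genes, which share the libraries and are not independent. With the length trend removed, 161 of the 12165 genes with a length were over 2-fold apart. The 174 given above is over all 12576 expressed genes, so these counts do not show what removing the trend changed.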

How the data were processed

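Poly(A) RNA of MDA-MB-231 cells was sequenced in 6 libraries, and the 2 control libraries are described. The authors deposited unnormalized counts of reads for each gene symbol, with every library in its own column. The tools named in the submitters' processing notes are GenomeStudio 2010.1, STAR and R 3.2.5, with the build GRCh38 and no roles. The annotation, the version of STAR and the strandedness used in counting were not given in the sources used here. The 4 entries that name no gene held 16.5 and 19.3% of all counts and were left out.

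CPM was computed from the counts with TMM factors (0.980 and 1.02) from the 2 control libraries (R 4.3.3, edgeR 4.0.16). DESeq2 1.42.0 size factors, no scaling, TMM over 6 libraries, other thresholds and each library alone were alternatives. Ratios carry exact conditional binomial intervals (95%, SciPy 1.17.1), and the procedure was run on simulated counts with counting error alone. That run lacked the further spread between the real libraries, so it does not show how the intervals perform on them. No p-value is given, since 1 library faces 1.

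Positions and longest transcripts are those of GENCODE 29 on GRCh38. Of 29744 symbols, 22615 matched by symbol and 984 by synonym, and 96.7% of expressed genes had a length. Genes were named by rule: the targeted genes, the 15 highest by CPM and by CPM per kb, leading or silent members of 29 lists, and up to 10 library differences in each direction at a mean of 5 CPM or more. Further members of the lists are given to account for them, 7 listed symbols were not analysed here, and some named genes are not reported here. The libraries and lists were chosen with earlier results of these data known.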

Additional observations from a re-analysis of the deposited data

How the results depend on the processing

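The number of silent genes was 11816 to 12172 with either library left out, against 10889 with both, the number of expressed genes 12439 to 12698 against 12576, and the share of the 100 most abundant genes 15.9 to 16.2%. Scaling had little effect on the count of genes over 2-fold apart: 210 without scaling, 171 with DESeq2 size factors and 176 with TMM over 6 libraries, against 174. Thresholds moved it: 3838 without a filter, 360 at 0.5 CPM, 15 at 10 CPM and 752 at 1.5-fold, by the construction of each. The coefficient of variation was 10.5% without scaling, 9.32% at 10 CPM and 10.3% without a filter, against 10.2%. Spearman's rho of ratio with length was 0.185 at 10 CPM and 0.0723 with the median transcript, against 0.111, and the cause was not tested. The 100 most abundant genes held 13.2% with unassigned reads in the denominator, and 8 of the 15 leading genes per kb remained with the median transcript length. Of 145 list medians under another scaling or a single library, 129 moved by no more than the spread between the libraries and 16 by more. For a single library this outcome was largely fixed in advance, since the spread comes from the same medians. Lists with a median of 0 throughout, such as the leukocyte list, count among the 129. The cancer-testis list had a spread of 0, so any change counted as a move. Promoter CG content of silent genes was not run because too few had a window. No paired analysis was possible because a single group is described and no groups are compared. Below the floor of 3 counts, 0.134 to 0.141 CPM, these libraries cannot tell low from absent.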

Other observations

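Cancer-testis antigens, which are normally restricted to germ cells, were counted at low levels. Of 14 listed genes 3 were expressed, MAGEC1 at 5.82 and 3.48 CPM, MAGEA3 at 4.12 and 2.07 CPM and MAGEC2 at 3.05 and 1.36 CPM, and all 3 were lower in replicate 2. MAGEA3 has a near-identical copy in MAGEA6, which stood at 0 and 0.141 CPM, so the split between them is uncertain. MAGEA1, MAGEA4, CTAG1A, CTAG1B, CTAG2, SSX2 and GAGE1 had 0 counts.

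NKX2-1, a transcription factor of lung and thyroid, stood at 2.02 and 1.88 CPM, and PAX8, a factor of kidney and thyroid, had 67 and 67 counts, while the thyroid and lung products TG and SFTPB stood at 0.0448 and 0.047 CPM and at 0.0448 and 0 CPM. TXNIP, which binds thioredoxin and is induced by glucose, was looked up after its values were seen and had 3117 counts in replicate 1 and 1894 in replicate 2, 1.57-fold higher in replicate 1 (interval 1.48 to 1.66). On the X chromosome 49.8% of 802 protein-coding genes were expressed, and on chromosome 21 49.3% of 209, beside 61.8% of all protein-coding genes. These were the lowest shares among the chromosomes listed, where the others ranged up to 68.2% on chromosome 13.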
